A study of Caenorhabditis elegans with 2 samples.

Results

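The cuticle collagen genes of *Caenorhabditis elegans* were examined for chromatin recovered with the tagged transcription factor NHR-111. The members were all protein-coding genes whose symbol begins with col-, which number 156, and 16 collagen genes named for the body shape of their mutants, namely bli-1, bli-2, dpy-2, dpy-3, dpy-5, dpy-7, dpy-8, dpy-10, dpy-13, dpy-17, rol-6, rol-8, sqt-1, sqt-2, sqt-3 and lon-3. This made 172 of the 19973 protein-coding genes. The rule for members used the names alone and no measured value, so it also takes in col-99, which encodes a transmembrane collagen. The set was chosen with earlier results of these data known. The samples formed a single group of 2 biological replicates, and no condition was compared with another. They were whole L4 larvae of both sexes, aged 48 h, that had been synchronised by starving newly hatched larvae after bleaching. All animals were of strain OP569, which carries the allele unc-119(tm4063). The transgene wgIs569 supplies NHR-111 with a TY1::EGFP::3xFLAG tag at its C terminus, together with a wild-type copy, unc-119(+). After sonication, chromatin was precipitated with an antibody against GFP. It is 1 transgenic line, the labels do not say which sequences drive the fusion, and whole animals mix the epidermis with every other tissue. No control library was analysed here.

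The cuticle is the collagen exoskeleton that the epidermis secretes and replaces at every molt. Its collagens are short chains that wind into triple helices through repeats of glycine followed by any pair of residues (Gly-X-Y), and they are trimmed, hydroxylated and cross-linked outside or on their way out of the cell. Their genes are switched on in waves during each larval stage, and nuclear hormone receptors such as NHR-23 and NHR-25 are known for roles in molting. NHR-111 is a member of the same receptor family.

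More cuticle collagen genes had a strong interval in their coding exons than around their starts. Among the 5010 pooled intervals of highest signal, 10 times as many as the 501 that passed the authors' threshold on replicate rank agreement, 46 of the 172 members (26.7%, exact 95% Clopper-Pearson interval 20.3 to 34%) had a summit in one of their coding exons, against 7.64% of all protein-coding genes. In the promoter window, which ran from 1000 bp before to 200 bp past the gene start, 8 members (4.65%, 2.03 to 8.96%) had one, against 6.79% of all protein-coding genes. A summit is the position of highest signal that the authors gave for each interval, and ranks count down from the strongest interval of a list. The 501 thresholded intervals were the 501 strongest of the pooled list, so counts from these 2 lists are not independent. Coding exons were looked at after the values had been seen, so their counts are a description. The exact intervals cover only the counting error over genes.

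**Figure D1:**
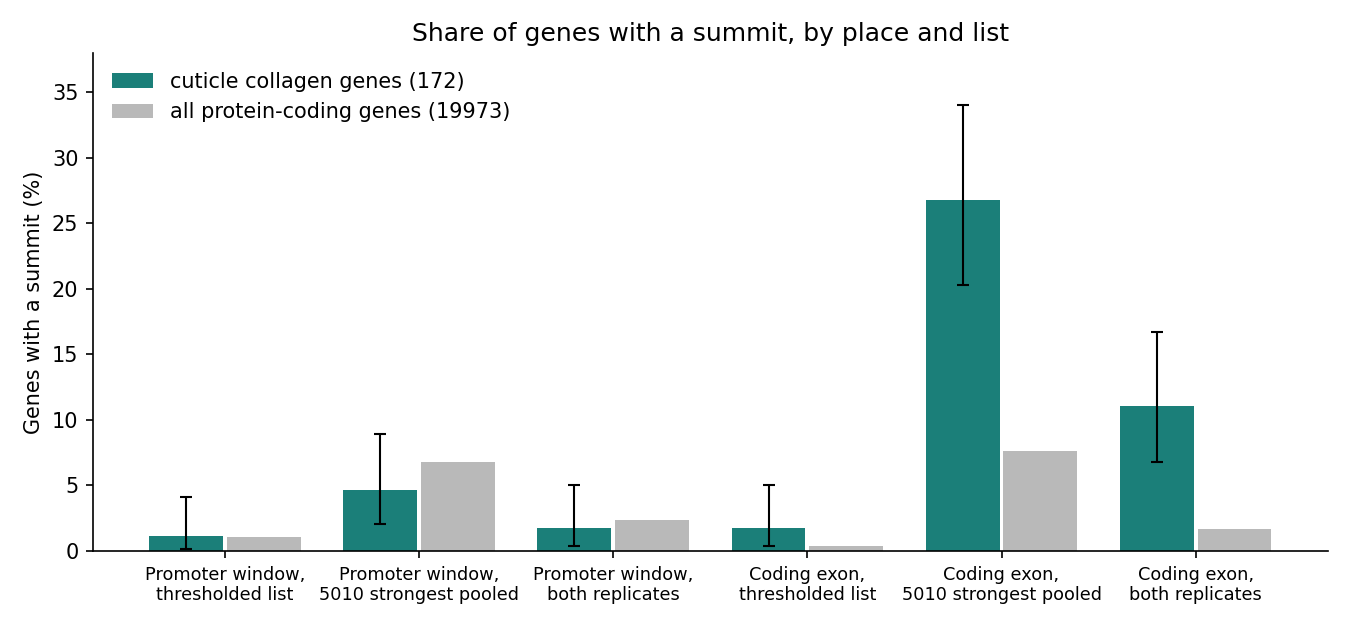
Share of the 172 cuticle collagen genes and of all 19973 protein-coding genes with a summit (percent, vertical axis) in the promoter window or in a coding exon, for the thresholded list, the 5010 strongest pooled intervals and matching summits among the 5010 strongest of both replicates. Error bars are exact 95% intervals for the members. The bars of members and all genes lie close together for the promoter window. For coding exons the bars of members are higher, 26.7% against 7.64% in the pooled intervals. In the thresholded list the error bar of the coding-exon share (0.361 to 5.01%) covers the 0.376% of all genes.

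In the promoter window the members stood near the background in each list. The thresholded list placed a summit at 2 members (1.16%, 0.141 to 4.14%), col-185 and col-63, and at 1.05% of all protein-coding genes. Among the 501 strongest intervals of replicate 1 there was 1 member (0.581%), against 0.976% of all protein-coding genes, and replicate 2 also had 1, against 1.06%. The full lists of 30000 intervals include background by design. In the pooled one, 57 members (33.1%, 26.2 to 40.7%) had a summit, against 31% of all genes. The full lists of replicate 1 and replicate 2 gave 57 members against 30.6%, and 59 members (34.3%, 27.2 to 41.9%) against 30.9%. Matching summits, at most 200 bp apart in the 2 replicates, were found at 3 members (1.74%, 0.361 to 5.01%) among the 5010 strongest of each replicate, where 2.34% of all genes had them. Over all intervals 21 members (12.2%, 7.72 to 18.1%) had matching summits, against 12.6%. A window of 500 bp before to 100 bp past the start left 0 members in the thresholded list, 3 among the 5010 strongest pooled intervals and 0 with matching summits. Of the 172 members, 79 had no window summit in any full list, 24 had one in all 3, and 62 had one in exactly 1 replicate.

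The strongest promoter-window summit of the set belonged to col-185, on chromosome X. Replicate 1 gave it a signal of 73.0 and replicate 2 one of 76.6 (mean 74.8 ± 2.49, SD, n = 2), at ranks 130 and 185. The pooled signal was 159 at rank 102. The replicates lay close together. The summit was 939 bp upstream of col-185 and 5 bp from the start of H06A10.t1, which RefSeq annotates as a proline tRNA gene on the minus strand, 13511970 to 13512041. Of the 67 pooled window summits at members, this 1 (1.49%) lay within 250 bp of a tRNA, snoRNA, snRNA or miRNA start, against 2.83% of such summits at all protein-coding genes. The sequence is shown because it is the tRNA gene that lies under the summit. It covers chrX:13511986-13512086 of assembly ce11 (WBcel235), minus strand, centred on the summit, with the bases of the tRNA gene in capitals.
col-185: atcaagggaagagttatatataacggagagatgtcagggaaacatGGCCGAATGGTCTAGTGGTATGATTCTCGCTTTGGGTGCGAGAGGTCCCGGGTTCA

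The other member in the thresholded list was col-63, on chromosome I. Its 2 signals were 49.8 and 54.1 (mean 52.0 ± 3.10, SD, n = 2), with a pooled signal of 114 at rank 320. The summit was 628 bp upstream of col-63, in the 3′ UTR of ceh-8, a homeobox gene, and 31 bp from the start of the non-coding RNA gene ZK265.11. Outside the threshold the next member was dpy-5, a collagen needed for normal body length, at pooled rank 1224 with a signal of 81.3 and its summit 42 bp inside the gene. Its replicate signals were 32.4 and 58.0 (mean 45.2 ± 18.1, SD, n = 2), farther apart than those of col-185 or col-63. These 3 members were the ones with matching window summits among the 5010 strongest of both replicates.

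The remaining 7 of the 10 members with the strongest window summits ranked between 1546 and 5813 in the pooled list. For col-20 the summit lay 672 bp upstream, with signals of 29.7 and 47.9 (mean 38.8 ± 12.9, SD, n = 2). For col-138 it lay in the coding exon, 163 bp past the start, with 32.8 and 34.4 (mean 33.6 ± 1.12). The summit assigned to col-142 was 750 bp upstream of it and fell inside a coding exon of its neighbour col-141, 723 bp from that gene's start, with signals of 42.8 and 22.4. Of the 9 of these 10 members with a match in both replicates, col-142 was the one at which replicate 1 had the higher signal. The summits at col-104 and sqt-2 were 424 and 387 bp upstream. Their nearest annotated starts were those of the pseudogene F58F6.t1, 243 bp away, and of the non-coding RNA gene C01B12.10, 296 bp away. Signals were 27.6 and 29.1 at col-104, and 18.9 and 42.4 at sqt-2 (mean 30.7 ± 16.6, SD, n = 2), so sqt-2 had the widest ratio between replicates of the 9. At dpy-13 the summit was 39 bp inside the gene, with signals of 25.5 and 37.6. At col-178 it was 137 bp inside, with 39.8 in replicate 2 and no matching interval in replicate 1.

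**Figure D2:**
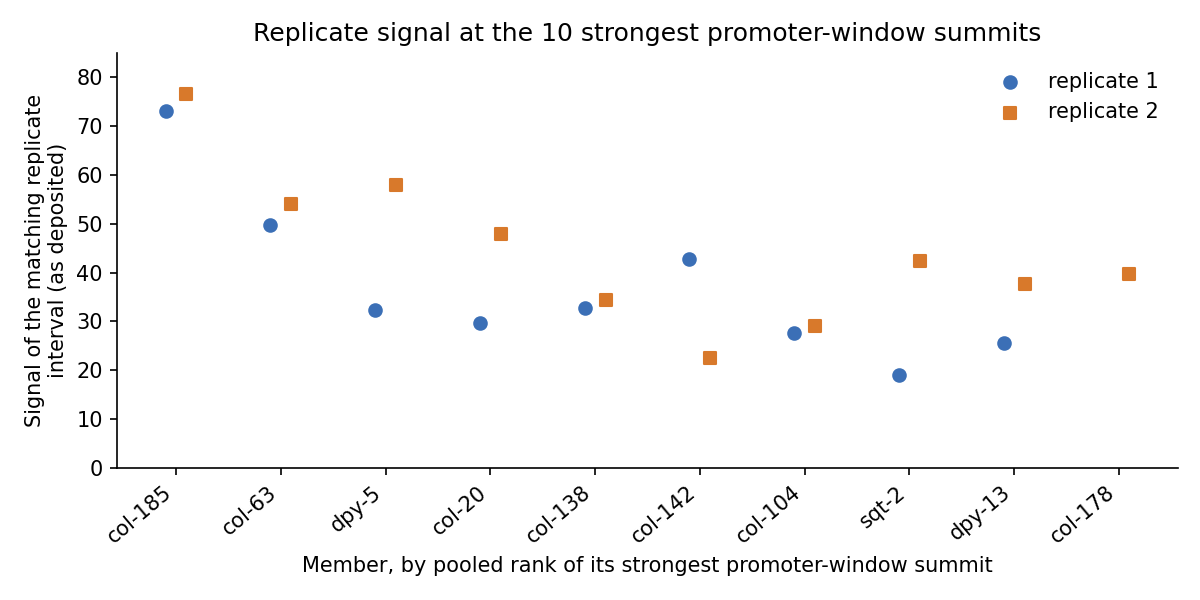
Signal of the matching interval, as deposited, in replicate 1 (circles) and replicate 2 (squares) for the strongest promoter-window summit of 10 members, ordered by pooled rank along the horizontal axis. The points of col-185 lie at 73.0 and 76.6, above those of the other 9 members, and col-178 has no circle because replicate 1 held no matching interval.

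The collagens named for mutant body shapes were spread over the ranks. For comparison, 31% of all protein-coding genes had a window summit in the full pooled list, which includes background. Of the 5 furrow collagens, which build the circumferential furrows of the cuticle, dpy-2 and dpy-10 had a pooled window summit and dpy-3, dpy-7 and dpy-8 had none. The dpy-10 summit was 85 bp upstream at rank 11067, with signals of 28.8 and 19.5 (mean 24.1 ± 6.57, SD, n = 2). That of dpy-2 was 399 bp upstream at rank 9930, nearest to the non-coding RNA gene T14B4.13. Of the 9 other body-shape collagens, 7 (77.8%) had a summit, and rol-6 and sqt-3 had none. Beside dpy-5, sqt-2 and dpy-13 these were lon-3 at rank 8201, sqt-1 at rank 11252, dpy-17 at rank 22784 and rol-8 at rank 28081. The blister collagens bli-1 and bli-2, which build the struts between the cuticle layers, had none in the window. The col- genes had one in 48 of 156 (30.8%).

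In distance from the start, the window summits were much like those of other genes. The 67 pooled summits were all distinct, and 9 members had more than 1. Their median position was 403 bp upstream of the start, against 348 bp upstream for the 7287 gene and summit pairs of all protein-coding genes, and 20.9% lay within 100 bp of the start, against 19.7%. By annotation, 28 (41.8%) were intergenic, 22 (32.8%) lay in coding exons, 14 of these in the member itself, and the others lay in introns or UTRs. The member's own start was the nearest in 50 of the 67 (74.6%), and a non-coding RNA start was nearest in 12. The shares by annotation and by nearest start were not set beside those of all genes. Both replicates held a summit within 200 bp of 23 of the 67, against 39.7% of all 30000 pooled summits, and neither did at 6. Over those 23 the median SD between replicates was 12.3% of the mean, and the median ratio of replicate 2 to replicate 1 was 1.05, against 1.09 over all matched pooled summits. At the window limits, the summits just inside were those of col-9 (988 bp upstream) and col-49 (178 bp downstream), and just outside those of col-93 (1009 bp upstream) and col-46 (218 bp downstream).

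**Figure D3:**
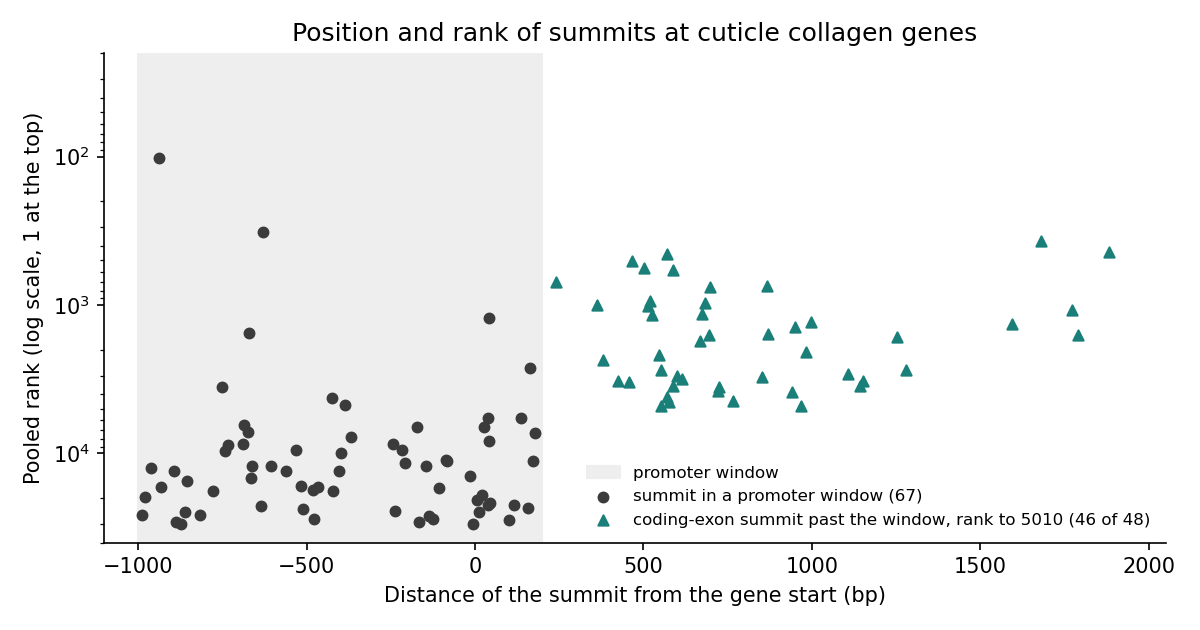
Distance of each summit from the gene start (bp, horizontal axis) against its pooled rank (logarithmic vertical axis, strongest at the top). Circles are the 67 pooled summits in the promoter windows of members (shaded) and triangles are coding-exon summits past the window among the 5010 strongest, of which 46 of 48 lie in the plotted range. Most circles sit below rank 5010. The triangles were cut at that rank and the circles were not, so their spreads over the ranks cannot be compared. The strongest circle is col-185 at rank 102, and the strongest triangle lies at rank 373, 1679 bp past the start.

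The coding exons of the members held 50 of the 5010 strongest pooled summits, or 29.5 per 100 kb of coding sequence, against 6.92 per 100 kb for all protein-coding genes. In the thresholded list 3 members (1.74%, 0.361 to 5.01%) had a coding-exon summit, and these were col-40, col-71 and col-107. That interval covers the 0.376% of all genes. At the same list length, replicate 1 alone gave 3 members (1.74%, 0.361 to 5.01%), against 0.456% of all genes. Replicate 2 alone gave 2 members (1.16%, 0.141 to 4.14%), against 0.496%. The intervals of both replicates also cover the share of all genes. Over all pooled intervals there were 122 members (70.9%, 63.5 to 77.6%), against 36.4%. The 1002 strongest pooled intervals gave 13 members (7.56%), against 1.12%. Among the 5010 strongest of each replicate alone, 45 members in replicate 1 had one, against 7.73% of all genes, and 44 in replicate 2, against 7.8%. Matching coding-exon summits among the 5010 strongest of both replicates were found at 19 members (11%, 6.78 to 16.7%), against 1.7% of all genes. Of the 49 members with a strong summit in either place, 41 had it in a coding exon alone, 3 in the window alone and 5 in both.

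The strongest coding-exon summit was in col-40, 1679 bp past the gene start. Replicate 1 gave it 49.3 and replicate 2 gave 57.5 (mean 53.4 ± 5.85, SD, n = 2) and a pooled rank of 373. In col-71 the summit lay 1881 bp past the start at rank 436, with 49.3 and 37 (mean 43.1 ± 8.69). In col-107 it lay 571 bp past the start at rank 455, with 68.9 and 39.3 (mean 54.1 ± 20.9). The replicates disagreed on the order of these 3, replicate 1 being highest at col-107 and replicate 2 at col-40. The next were col-122 at rank 508, just outside the threshold, with 41.1 and 62.8, and col-119 at rank 564 with 34.5 and 61.0. Replicate signals lay close together at col-139, with 41.6 and 44.3, and at col-42, with 46.6 and 46.9.

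Among body-shape collagens, dpy-5 had a second summit 241 bp past its start at rank 695. Signal there was 43.5 in replicate 1 and 58.0 in replicate 2, the latter from the same interval that matched the summit at 42 bp. The blister collagen bli-2, without a window summit, had a coding-exon summit 698 bp past the start at rank 752, with 41.1 and 50.9 (mean 46.0 ± 6.92, SD, n = 2). For sqt-3, which likewise had none in the window, it lay 871 bp past the start at rank 1559, with 32.2 and 33.4 (mean 32.8 ± 0.877). These 3 members were also among the 19 with matching summits. The summit of sqt-2 at 514 bp had signals of 57.3 and 27.4, the reverse of its window summit, at which replicate 2 was higher. The furrow collagens dpy-8, dpy-7 and dpy-2 ranked 3083, 4448 and 4804, and dpy-7 and dpy-2 had no matching interval in replicate 1. The last was rol-8 at rank 3508.

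**Figure D4:**
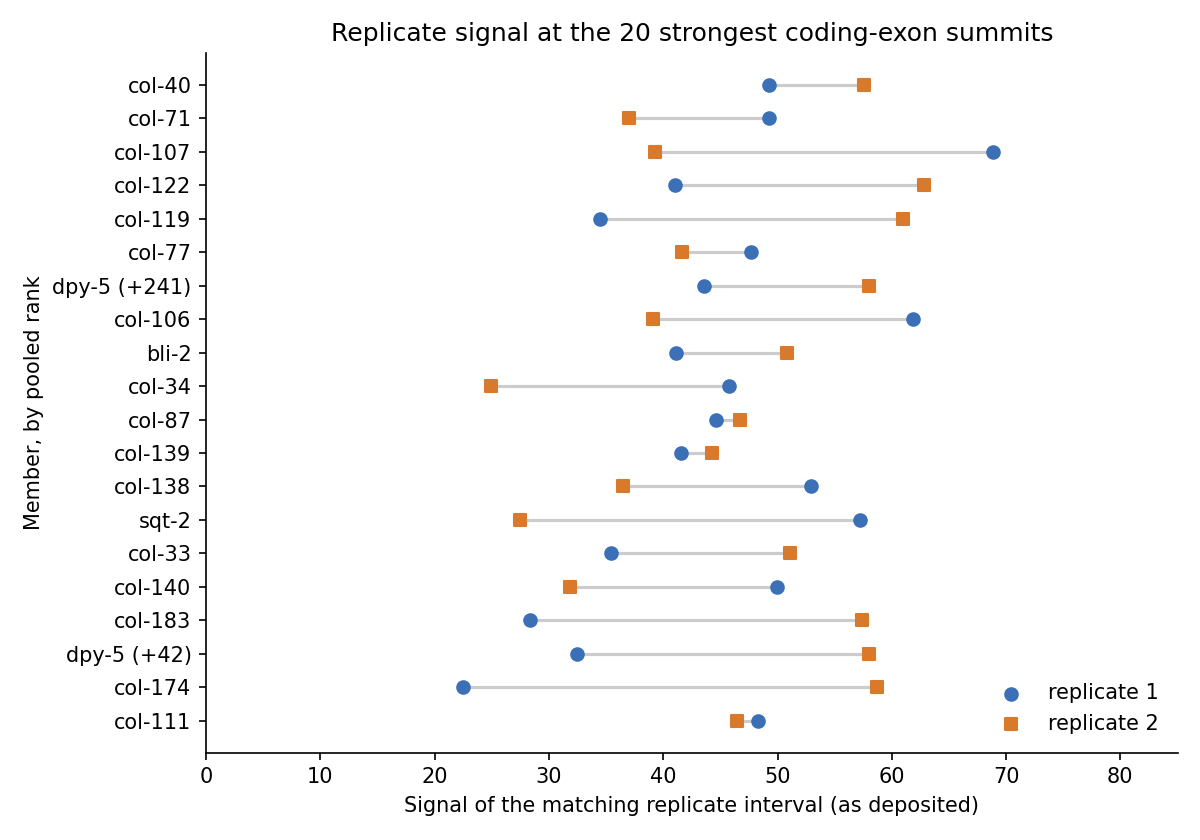
Signal of the matching interval, as deposited (horizontal axis), in replicate 1 (circles) and replicate 2 (squares) at the 20 coding-exon summits of highest pooled rank, listed from the strongest down, with a line joining the replicates of a summit. Neither replicate is the higher throughout, and the gap between replicates is narrowest at col-111 and widest at col-174.

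Over the 50 summits, both replicates held a matching interval at 43, replicate 2 was the higher in 25 of these, and the median ratio of replicate 2 to replicate 1 was 1.05. The median distance past the start was 689 bp, and 48 of the summits lay beyond the promoter window. None was within 250 bp of a small RNA start. Members are related in sequence, but in none of these 50 places did words of 50 bases that occur again in the genome make up over 20% of the words within 200 bp of the summit.

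The summits sat largely on the Gly-X-Y repeats. Runs of at least 5 codon triplets that each begin with a glycine codon were found in 171 of the 172 members. They held 47.1% of the members' coding bases. The member without such a run was col-17, in which glycine codons made up 0.722% of the codons as annotated. The reason for this was not tested. Of the 50 strong coding-exon summits, 35 (70%) lay in such a run, and so did 107 of the 171 over all pooled intervals (62.6%). The sequences of 5 members with strong coding-exon summits are shown, 101 bases each, centred on the summit and given 5′ to 3′ on the coding strand in assembly ce11, with glycine codons in capitals, including any that the ends cut. The summits of col-107, col-119, bli-2 and sqt-3 lay in a run, and that of col-40, the strongest, lay outside one, at a stretch without glycine codons between others that hold them. The sequences cover chrII:1105235-1105335 (minus strand) in col-40, chrIV:1549242-1549342 (plus) in col-107, chrIV:8979242-8979342 (minus) in col-119, chrII:5651686-5651786 (minus) in bli-2 and chrV:12353566-12353666 (plus) in sqt-3.
col-40: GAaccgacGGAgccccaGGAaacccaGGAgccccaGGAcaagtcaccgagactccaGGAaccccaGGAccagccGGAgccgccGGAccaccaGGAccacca
col-107: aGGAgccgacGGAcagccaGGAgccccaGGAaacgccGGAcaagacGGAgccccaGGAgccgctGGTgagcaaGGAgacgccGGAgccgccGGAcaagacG
col-119: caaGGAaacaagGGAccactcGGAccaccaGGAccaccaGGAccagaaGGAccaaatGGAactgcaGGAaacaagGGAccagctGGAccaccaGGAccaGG
bli-2: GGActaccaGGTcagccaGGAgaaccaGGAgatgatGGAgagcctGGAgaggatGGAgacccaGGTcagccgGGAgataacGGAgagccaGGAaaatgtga
sqt-3: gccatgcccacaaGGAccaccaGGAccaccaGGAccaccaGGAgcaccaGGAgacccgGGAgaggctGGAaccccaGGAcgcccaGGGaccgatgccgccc

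Glycine codons recur at a fixed spacing over most of these stretches. Counting any that the ends cut, there were 12 glycine codons in those of col-107 and col-119, 11 in bli-2, 10 in col-40 and 9 in sqt-3. The GC content of these stretches ran from 57.4% GC in bli-2 to 70.3% in col-107 and sqt-3. Over all members the repeats had a median GC content of 60.8%, against 49.2% for the rest of their coding bases.

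GC content moved with these counts. The members' coding exons had a median of 55.1% GC, against 42.5% for all protein-coding genes. Members with a strong coding-exon summit had a median of 56.5%, and those without 54.3%. The 101 bases around the 50 summits had a median of 58.9% GC, against 46.5% for the 1709 strong coding-exon summits of all genes. Among genes with coding GC of at least 50%, 43 of 145 members (29.7%) and 258 of 1650 other protein-coding genes (15.6%) had a strong coding-exon summit, or 33.8 and 20.5 summits per 100 kb. Matching summits in both replicates were found at 12.4% of these members and 4.42% of these other genes. The limit is a floor and did not equalise GC content. Median coding GC was 56% in these members and 51.9% in these other genes, and median coding length 912 and 597 bp. At 55% GC or more the shares were 33 of 87 members (37.9%) and 42 of 218 others (19.3%), and the densities 44.6 and 33.1 per 100 kb, the other genes being shorter, with a median of 419 coding bp against 906. Matching summits were found there at 19.5% of members and 7.34% of others. Median coding GC there was still higher in members, 58.5% against 56.7%. Over all genes, the others had a strong coding-exon summit in 7.47%, matching summits in 1.62%, and 6.76 summits per 100 kb. The part of GC content in the result was not tested.

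**Figure D5:**
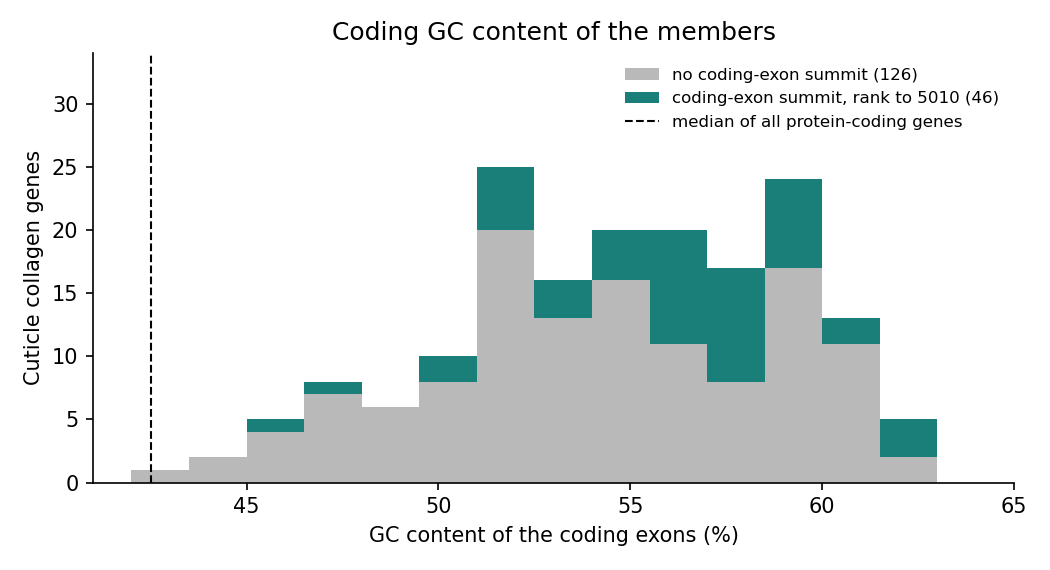
Number of cuticle collagen genes (vertical axis) by GC content of their coding exons (percent, horizontal axis), stacked for 126 members without and 46 with a coding-exon summit among the 5010 strongest pooled intervals. Nearly all bars lie to the right of the dashed line, the median of 42.5% for all protein-coding genes, and both groups of members span most of the range.

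Cuticle collagen genes often stand side by side, and summits were counted along these runs. Starts at most 5 kb apart joined 53 members into 22 runs, in which 21 members (39.6%) had a pooled window summit, against 36 of the 119 others (30.3%). All members had one in 4 runs and none in 10. The largest run, col-167 to col-171, had summits at 4 of its 5 genes. In a run the window of a member can reach into a neighbour. The window summits of col-142 lay in a coding exon of col-141, and that of col-44 in one of col-9. How far this adds to the count in runs was not tested. By chromosome, 16 of 32 members on II (50%) had a pooled window summit, against 31.4% of the protein-coding genes there. On V it was 6 of 33 (18.2%), against 26%. The share was also above that of the protein-coding genes on III, with 7 of 13 (53.8%, against 37.7%), and on I, with 10 of 22 (45.5%, against 36.8%). It was below on IV, with 10 of 42 (23.8%, against 27.8%), and on X, with 8 of 30 (26.7%, against 30.6%).

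Genes that act with the cuticle collagens were counted in the same promoter window, where 1.05% of all protein-coding genes had a thresholded summit, 6.79% one among the 5010 strongest and 31% any pooled one. Of 17 genes for collagen processing, pdi-2 alone had a window summit in the thresholded list, 40 bp upstream of its start. Its signals were 41.6 and 84.9, in the same order (mean 63.2 ± 30.7, SD, n = 2), so the replicates were far apart. It encodes a protein disulfide isomerase that is also a subunit of the prolyl 4-hydroxylase that modifies collagen chains. Among the 5010 strongest pooled intervals there was 1 of 41 cuticlin and related genes, cutl-23, with its summit 24 bp from the start of the tRNA gene B0244.t2. The same limit gave 1 of 20 molting and epidermal regulators, myrf-1, a transcription factor gene, and 1 of 5 further cuticle collagens, dpy-14. The summit assigned to myrf-1 lay 347 bp upstream of it, and its nearest annotated start was that of F59B10.7, 236 bp away. None of the 3 basement membrane collagens had a summit at this limit. Over all pooled intervals a summit was found at 6 of the 17 processing genes (35.3%), 9 of the 41 cuticlin and related genes (22%) and 10 of the 20 regulators (50%). It was found at 1 of the 5 further cuticle collagens and at 2 of the 3 basement membrane collagens. These lists are small, and no difference from the background was tested.

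Sequence words were counted from 250 bp before to 50 bp after each start, on both strands. AGGTCA, the half-site word of many nuclear receptors, was found in 24 of the 172 members (14%) and in 8.27% of all protein-coding genes. TATAAA was found in 115 (66.9%) and in 37.9%. The GATA words TGATAA and AGATAA, which share GATAA and differ in their first base, were found in 29.1% and 27.9% of members, and in 30.2% and 21.2% of all genes. Within 50 bp of the 67 window summits AGGTCA occurred at 4 (5.97%), against 2.64% of all pooled summits. The other words occurred there at 7 for TATAAA (10.4%, against 6.34%), 5 for AGATAA (7.46%, against 4.49%) and 3 for TGATAA (4.48%, against 6.87%). The summit of col-20 was 1 of the 4 with AGGTCA, and its 101 bases are shown, at chrII:4871413-4871513 on the minus strand of ce11, with the word in capitals as its reverse complement TGACCT.
col-20: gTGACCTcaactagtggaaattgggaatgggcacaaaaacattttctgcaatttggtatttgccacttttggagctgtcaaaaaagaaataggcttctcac

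Signals over the series ran from 101 to 432 in the thresholded list and from 32.1 to 432 in the pooled list. Read totals are not part of the files, which makes the sequencing depth unknown, and 2 replicates limit the precision of each mean.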

How the data were processed

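Chromatin immunoprecipitation sequencing of NHR-111::GFP was deposited as lists of intervals, in ce11 coordinates per the labels. The authors made each replicate's list of 30000 intervals from its own alignment and a shared control, the pooled list from both of these alignments, the thresholded one from all 3 lists, per the deposited text files. Aligner, caller and thresholds were not stated there. The deposited signal, whose scale was not stated either, was used to rank intervals within a list, and its means, SDs and ratios hold on the scale as deposited, without scaling between replicates. The deposited −log10 q-value was read and not used for ranking.

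Genes came from Ensembl release 115 of WBcel235 (46890 genes, 1348 of them for small RNAs), with symbols checked against RefSeq, where all 172 members had the same one. Sequences came from the RefSeq genome. Python 3.11.15, numpy 2.4.6, pandas 2.3.3 and scipy 1.17.1 were used. Window matching was tested on simulated intervals. The members and lists were chosen with earlier results of these data known, and no test or p-value was computed. Members were named where they had a thresholded summit, matching window summits among the 5010 strongest of both replicates, one of the 10 strongest window summits or a body-shape name, together with the gene nearest to each summit. Coding-exon members and those in the passages on window limits and neighbouring genes were named after their values were seen.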

Additional observations from a re-analysis of the deposited data

How the results depend on the processing

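The counts in the promoter window depended on the window and the list. With 500 bp upstream to 100 bp downstream, the thresholded count of 2 members became 0, the 8 among the 5010 strongest pooled intervals became 3 (1.74%, against 3.83% of all protein-coding genes) and the 3 with matching replicate summits became 0. With 2000 bp to 500 bp they were 4, 20 (11.6%, against 12.2%) and 7. Counting any overlap of at least 1 bp gave 13 (7.56%, against 8.76%) among the pooled intervals and 5 with matches. Without summits near small RNA starts, which removes col-185, the thresholded count was 1. The 250 strongest thresholded intervals gave 1. Either replicate alone, at the same list length, gave 1 each. The 1002 strongest pooled intervals gave 2, and all pooled intervals 57. Matches within 50 bp left 1, and matches over all intervals gave 21. The coding-exon count of 46 became 13 among the 1002 strongest and 122 among all intervals, an alternative chosen after seeing the data, and replicates alone gave 44 to 45. The other alternative counts stayed within 1.5 times. No paired analysis was possible because there is 1 group. Depth is unknown, so absence from a list says only that no interval was listed.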

Other observations

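Past the promoter window, the strongest pooled summits within 2000 bp before a member's start or 600 bp past it lay beside small RNA genes. They were looked at with their values known. The summits at ranks 50 and 85, 1786 and 1992 bp upstream of col-94, were 20 and 186 bp from the start of the snRNA gene R07E5.16, with pooled signals of 189 and 168. That at rank 131, 338 bp past the start of col-85 and outside its coding exons, was 16 bp from the start of the tRNA gene T21B4.t1, with a pooled signal of 147. On the upstream side there were 7 such summits among the 5010 strongest, at 6 members, and the 2 at col-94 were the ones within 250 bp of a small RNA start. The other 5, from 1049 to 1966 bp upstream, ranked 1232 at col-107, 1736 at col-146, 2694 at col-45, 4780 at col-98 and 4857 at col-140.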
